A study of Mus musculus with 9 samples.

Results

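Messenger RNA of 7 magnesium channel and transporter genes was measured in mouse T follicular helper (Tfh) cells from Peyer's patches. These T cells help B cells in germinal centres of the lymphoid tissue in the wall of the small intestine. The genes are Trpm6, Trpm7, Magt1, Cnnm2, Cnnm3, Cnnm4 and Mrs2, found by their symbols in the deposited count table, 7 of the 54146 genes it lists. They were chosen on their levels in the same comparison that is described here. The comparison is between cells with 1 mutant Tgfbr1 allele (WT/mut, 5 libraries, replicates 6 to 10) and cells of wild-type littermates (WT, 4 libraries, replicates 1, 3, 4 and 5). Tgfbr1 encodes the type I receptor for TGF-beta. In both groups the cells had been sorted for CD4, CXCR5 and PD1, and libraries were made from 300 pg of poly(A) RNA with a SMART-Seq low-input kit that keeps no strand information. The labels give no age, sex, litter, strain or batch and do not say what the mutation is. Nor is it stated whether the libraries are separate animals, and any p-value measures the spread between these libraries, which may be technical. In bulk RNA, fewer cells of a type and less RNA per cell cannot be told apart.

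Magnesium enters mammalian cells mainly through channels of the TRPM family, leaves or is regulated at the plasma membrane through CNNM proteins, and reaches mitochondria through the inner membrane channel MRS2. TRPM6 and TRPM7 are channels fused to a protein kinase and can assemble together. TRPM6 is best known from the intestinal and renal epithelium, where it takes up magnesium from the lumen, whereas TRPM7 is found in nearly all cells and is needed for thymocyte development in mice. MAGT1 is a subunit of the oligosaccharyltransferase, the enzyme complex that attaches glycans to new proteins, and was also described as a magnesium transporter. Its loss in humans causes an immunodeficiency with a defect of T cell and natural killer cell activation.

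Trpm6 was the member with the largest difference between the groups. It lay at 0.849 ± 0.387 CPM in WT/mut cells (SD, n = 5) and 7.67 ± 4.37 CPM in WT cells (SD, n = 4), where CPM is the count scaled to library size with TMM factors. The other 6 members had log2 fold changes (WT/mut over WT) between -0.67 and 0.23. Of these, Cnnm4 was the only other gene whose libraries did not overlap between the groups. Trpm7, the partner of Trpm6 in the channel, was at 120 ± 14.1 CPM in WT/mut cells (n = 5) and 118 ± 13.7 CPM in WT cells (n = 4).

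The libraries held between 29488783 and 43872686 counts. Tgfbr1 averaged 73.6 ± 16.5 CPM in WT/mut cells and 77.0 ± 20.2 CPM in WT cells (SD), a log2 fold change of -0.07 ± 0.21 (SE, adjusted p = 0.921, edgeR). A count per gene does not show which allele the reads came from. WT/mut replicate 7 had 30143 genes with a count, against at most 20264 in any other library. The genes that encode the sort markers were high in both groups. Cd4 averaged 894 ± 62.3 CPM in WT/mut cells and 811 ± 154 CPM in WT cells. Pdcd1, which encodes PD1, averaged 1774 ± 131 CPM in WT/mut cells and 1815 ± 353 CPM in WT cells. Cxcr5 averaged 1182 ± 59.4 CPM in WT/mut cells and 1317 ± 63.3 CPM in WT cells. Icos encodes a costimulatory receptor of Tfh cells that was not used for the sort. It averaged 807 ± 71.1 CPM in WT/mut cells and 1154 ± 83.6 CPM in WT cells. Its ranges were apart, at 749 to 922 CPM in WT/mut cells and 1038 to 1226 CPM in WT cells.

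Trpm6 lies on chr19:18749983-18892511, plus strand (GENCODE M21, GRCm38), and Trpm7 on chr2:126791565-126876230, minus strand. Both are shown here by the 250 bases upstream of their RefSeq start, because they encode the paired channel kinases and their levels behaved differently. The sequences are from RefSeq on GRCm38.p6, written 5′ to 3′ on the gene's own strand, with each CpG, the base pair step that can be methylated, in capitals. The Trpm6 stretch is chr19:18749480-18749729, plus strand, and its RefSeq start lies 253 bases before the GENCODE start. The Trpm7 stretch is chr2:126876262-126876511, minus strand.
Trpm6: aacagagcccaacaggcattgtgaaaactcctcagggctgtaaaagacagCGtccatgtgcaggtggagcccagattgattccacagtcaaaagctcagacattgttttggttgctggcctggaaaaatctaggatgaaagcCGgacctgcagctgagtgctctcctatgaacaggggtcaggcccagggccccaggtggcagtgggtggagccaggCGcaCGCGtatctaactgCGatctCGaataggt
Trpm7: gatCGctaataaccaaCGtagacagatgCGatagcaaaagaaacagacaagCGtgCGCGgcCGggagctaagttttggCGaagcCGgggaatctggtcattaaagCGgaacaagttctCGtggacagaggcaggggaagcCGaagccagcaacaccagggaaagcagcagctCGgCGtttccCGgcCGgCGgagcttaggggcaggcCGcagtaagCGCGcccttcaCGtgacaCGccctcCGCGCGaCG

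The Trpm6 stretch holds 7 CpG, close to the median of 6 over 32851 mouse promoters of the same length, whereas the Trpm7 stretch holds 26. Counts of CpG as low as that of Trpm6 were found in 57.0% of the promoters, and as low as that of Trpm7 in 91.4%. Of the other members with a RefSeq promoter, Cnnm4 had 34 CpG, Cnnm3 29, Magt1 21 and Cnnm2 19. Trpm6 was thus the member with the fewest CpG and the lowest GC content, 54.4% against up to 75.6% in Cnnm4. Both strands were searched for CAGAC, the core of a Smad binding element. It was present in the stretches of all 6 members and in 42.2% of all promoters. GGGCGG, an Sp1 motif, was present in those of Cnnm2, Cnnm3 and Cnnm4 and in 32.7% of all promoters. TATAAA was present in none of the 6 and in 12.4% of all promoters. These are matches of letters, not measured binding sites.

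Trpm6 encodes the channel kinase known for epithelial magnesium uptake. In WT/mut cells it was at 0.752 CPM in replicate 6, 0.784 in replicate 7, 1.49 in replicate 8, 0.427 in replicate 9 and 0.795 in replicate 10. In WT cells it was at 7.06 CPM in replicate 1, 7.93 in replicate 3, 13.2 in replicate 4 and 2.52 in replicate 5. The highest WT/mut library, replicate 8, stayed below the lowest WT library, replicate 5. The log2 fold change was -3.17 ± 0.49 (SE), an 8.97-fold lower mean level in WT/mut cells. Of the 15521 genes tested, 8 had a log2 fold change at or below this value, Trpm6 included.

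These levels rest on few reads in WT/mut cells. The 5 WT/mut libraries held 25, 25, 56, 12 and 29 Trpm6 counts, in the order of their replicate numbers, 147 in all. The 4 WT libraries held 223, 331, 453 and 109 counts, 1116 in all. Trpm6 passed the filter on low counts, set at about 0.287 CPM, in all 5 WT/mut libraries as well as in WT cells. Its expected counts were whole numbers in every library. None of the 7713 stretches of 50 bases in its transcripts occurs in a transcript of another gene. The only gene annotated over it, the small RNA gene Gm24190, had no count.

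**Figure D1:**
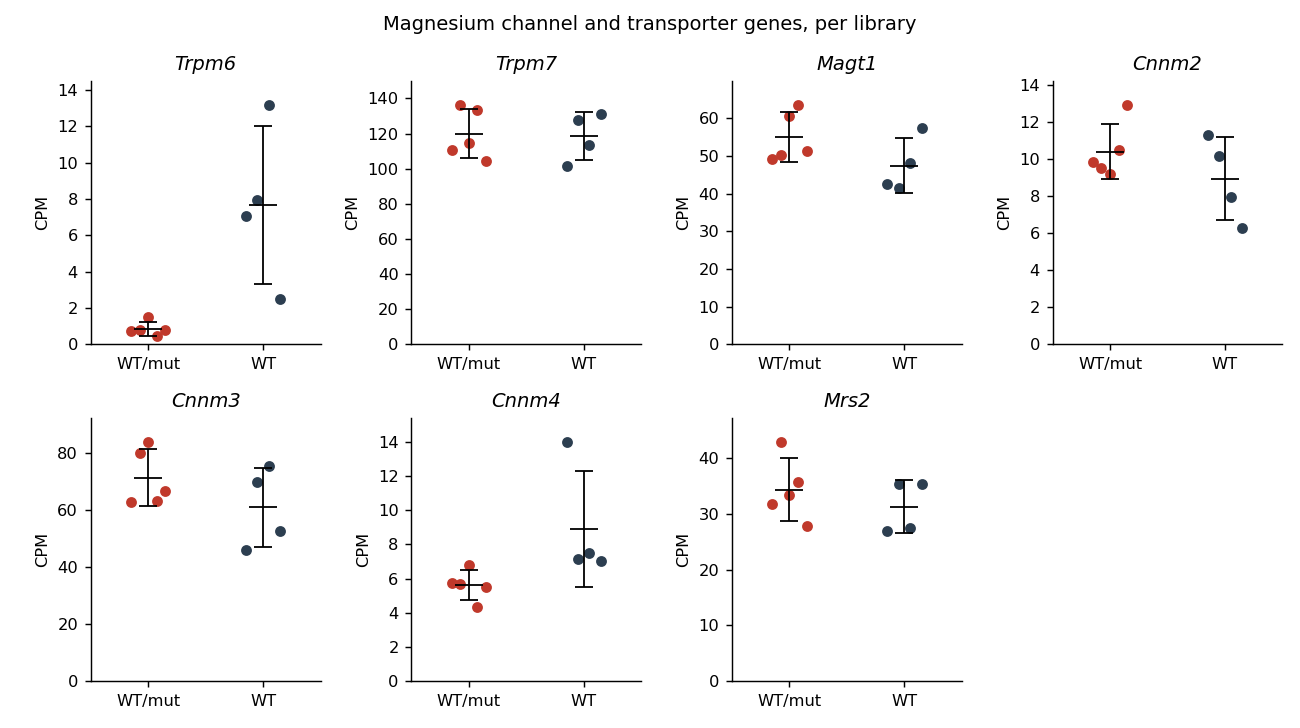
CPM (vertical axes, linear from 0) of the 7 members in 5 WT/mut and 4 WT libraries; points are libraries, bars are mean ± SD. The WT/mut points lie below all WT points for Trpm6 (at most 1.49 against at least 2.52 CPM) and Cnnm4 (at most 6.82 against at least 7.04 CPM).

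Among the members, 1 of 7 passed the adjusted p threshold of 0.05 in the edgeR fit over all genes, Trpm6, where 0.122% of all tested genes passed in either direction and 0.0902% passed as lower in WT/mut cells. With DESeq2, whose share was 2.32% over the genes it tested, Trpm6 was again the 1 member called. In 2 of 7 members, Trpm6 and Cnnm4, the ranges of CPM in the groups were apart, against 4.46% of all tested genes. Since the members were chosen on this contrast, nothing is read from these shares and no p is given for a member. The call of Trpm6 depended on single libraries. It was kept in 1 of the 9 fits that left out 1 library, the one without WT replicate 5, while the log2 fold change stayed between -3.46 and -2.76. With limma-voom the value was -2.94 ± 0.77 and was not called. Over the 7 members the median log2 fold change was 0.13, against 0.0015 over all tested genes. Of the 7, 2 had a negative and 5 a positive value, against 49.8% negative over all tested genes.

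Trpm7 encodes the channel kinase that most cells use for magnesium entry. Its level in the WT/mut libraries was 111 CPM in replicate 6, 136 in replicate 7, 115 in replicate 8, 134 in replicate 9 and 105 in replicate 10. In the WT libraries Trpm7 was at 102 CPM in replicate 1, 128 in replicate 3, 114 in replicate 4 and 131 in replicate 5. The groups overlapped over nearly their whole ranges. The log2 fold change was 0.02 ± 0.12 (SE), and it lay between -0.04 and 0.07 when each library was left out in turn. With 19925 counts in the WT/mut libraries and 18119 in the WT libraries, Trpm7 was measured far more deeply than Trpm6.

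The share of Trpm6 among the counts of both channel genes does not depend on the scaling between libraries. In WT/mut cells it was 0.673% in replicate 6 (95% exact Clopper-Pearson interval 0.436 to 0.992), 0.572% in replicate 7 (0.371 to 0.844), 1.28% in replicate 8 (0.968 to 1.66), 0.319% in replicate 9 (0.165 to 0.556) and 0.754% in replicate 10 (0.505 to 1.08). The WT libraries had 6.50% in replicate 1 (5.70 to 7.38), 5.85% in replicate 3 (5.25 to 6.49), 10.4% in replicate 4 (9.51 to 11.3) and 1.88% in replicate 5 (1.55 to 2.26). WT/mut replicate 8 and WT replicate 5 came nearest to each other, and the upper bound of the first overlapped the lower bound of the second. The other WT/mut libraries all lay below WT replicate 5 with intervals that did not reach it. These intervals cover the counting error of reads only, not the spread between libraries. The kit adds no molecular identifiers, so repeated reads of the same molecule cannot be told apart and the intervals may be too narrow.

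**Figure D2:**
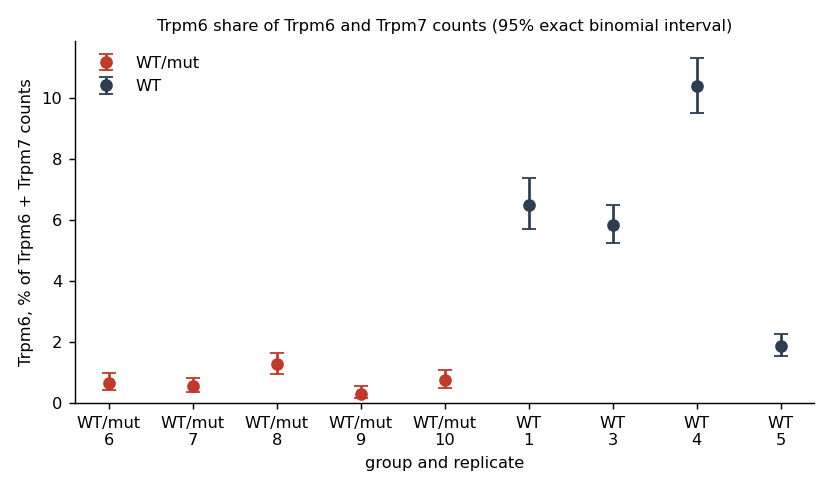
Trpm6 as a percentage of the counts of Trpm6 and Trpm7 (vertical axis, linear from 0) in each library, WT/mut replicates 6 to 10 and WT replicates 1, 3, 4 and 5; bars are 95% exact binomial intervals. The WT/mut libraries lie between 0.319% and 1.28% and the WT libraries between 1.88% and 10.4%.

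By the ratio of the highest to the lowest library and by the coefficient of variation, Trpm6 also varied most within each group. Its highest CPM was 3.48 times its lowest among the WT/mut libraries and 5.24 times among the WT libraries. For the other 6 members this ratio ran from 1.29 to 1.99. The coefficient of variation of Trpm6 was 45.6% in WT/mut cells and 57.0% in WT cells. The chi-square of the counts per degree of freedom, which is about 1 for counting noise alone, did not rank the members this way. It was between 4.51 and 112 over all members and both groups, and for Trpm6 it was 5.89 in WT/mut cells and 99.2 in WT cells.

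The 3 CNNM genes encode membrane proteins that carry magnesium out of the cell or regulate its transport. Cnnm4, known for magnesium extrusion at the basolateral side of the gut epithelium, was at 5.71 CPM in replicate 6, 5.68 in replicate 7, 6.82 in replicate 8, 4.31 in replicate 9 and 5.53 in replicate 10 of the WT/mut cells. The WT libraries held 14.0 CPM in replicate 1, 7.12 in replicate 3, 7.48 in replicate 4 and 7.04 in replicate 5. All WT/mut libraries lay below all WT libraries, but the gap between the nearest libraries was small and WT replicate 1 stood far above the other 3. The log2 fold change was -0.67 ± 0.26 (SE) and did not pass the threshold. Without WT replicate 1 it was -0.36 ± 0.23, so that library set much of the difference.

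Cnnm3 was the most abundant CNNM gene. The WT/mut libraries held 62.9 CPM in replicate 6, 80.2 in replicate 7, 84.0 in replicate 8, 63.1 in replicate 9 and 66.8 in replicate 10. The WT libraries held 46.2 CPM in replicate 1, 69.8 in replicate 3, 75.6 in replicate 4 and 52.6 in replicate 5. The groups overlapped, and the log2 fold change was 0.23 ± 0.16 (SE). Cnnm3 lies 3103 bases beyond the end of Cnnm4 on chromosome 1, both on the plus strand, at chr1:36511867-36528237 and chr1:36471620-36508764. These neighbours had log2 fold changes of opposite sign, and neither passed the threshold.

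Cnnm2, known for renal magnesium handling, lies on chr19:46761596-46880192, the same chromosome as Trpm6. In WT/mut cells it was at 9.86 CPM in replicate 6, 9.54 in replicate 7, 9.21 in replicate 8, 10.5 in replicate 9 and 12.9 in replicate 10. Cnnm2 in WT cells was at 11.3 CPM in replicate 1, 10.2 in replicate 3, 7.94 in replicate 4 and 6.30 in replicate 5. The WT libraries reached both above and below most WT/mut libraries, and the log2 fold change was 0.22 ± 0.21 (SE).

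Magt1, the oligosaccharyltransferase subunit, lies on chrX:105968084-106011906. Magt1 in WT/mut cells was at 49.3 CPM in replicate 6, 50.3 in replicate 7, 60.7 in replicate 8, 63.6 in replicate 9 and 51.4 in replicate 10. Among the WT libraries it was at 42.5 CPM in replicate 1, 41.5 in replicate 3, 48.2 in replicate 4 and 57.4 in replicate 5. Of the WT libraries, only replicate 5 reached into the WT/mut range. The log2 fold change was 0.22 ± 0.13 (SE). It was positive in each fit that left out 1 library, from 0.16 to 0.32, and was called in none of them.

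Mrs2, the channel for magnesium entry into mitochondria, lies on chr13:24987483-25020379, minus strand. The WT/mut libraries held 31.8 CPM in replicate 6, 43.0 in replicate 7, 33.4 in replicate 8, 35.8 in replicate 9 and 27.8 in replicate 10. Mrs2 in WT cells was at 26.8 CPM in replicate 1, 35.4 in replicate 3, 27.5 in replicate 4 and 35.4 in replicate 5. The groups overlapped, with a log2 fold change of 0.13 ± 0.15 (SE). The end of Gpld1 on the opposite strand overlaps Mrs2, and 31.9% of the 50-base stretches of Mrs2 transcripts also occur, in reverse, in that gene. Reads there cannot be told apart with this kit. The table gave 92 counts to Gpld1 and 10503 to Mrs2 over all libraries. The shares of such stretches in the other members were at most 3.01%.

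Levels of different genes were compared as CPM per kilobase of exon, over the union of the exons in GENCODE M21. In WT/mut cells Magt1 (11.8 ± 1.41), Cnnm3 (11.1 ± 1.56) and Trpm7 (10.6 ± 1.25) were highest, with ranges that overlapped (SD, n = 5). Mrs2 followed at 4.5 ± 0.74, Cnnm2 at 2.01 ± 0.29, Cnnm4 at 1.16 ± 0.18 and Trpm6 at 0.110 ± 0.050, each below the one before it in 5 of 5 libraries and with ranges apart. In WT cells Trpm7 (10.5 ± 1.21), Magt1 (10.1 ± 1.56) and Cnnm3 (9.51 ± 2.17) were again highest and overlapped (SD, n = 4). Mrs2 was at 4.10 ± 0.62, Cnnm4 at 1.85 ± 0.71, Cnnm2 at 1.73 ± 0.43 and Trpm6 at 0.994 ± 0.567 CPM per kilobase. Trpm6 was the lowest member in both groups, but in WT cells its range overlapped those of Cnnm2 and Cnnm4, which also overlapped each other. In 1 of the 4 WT libraries, replicate 4, Trpm6 was above both. With the longest transcript as the length, 4 of the 7 members kept their rank in both groups, and Trpm7 was then the highest in both.

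**Figure D3:**
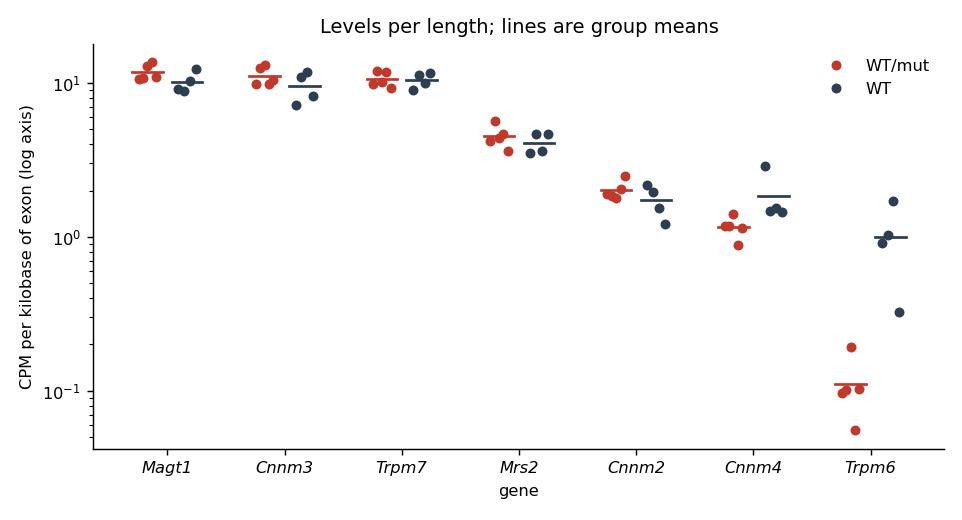
CPM per kilobase of exon (vertical axis, logarithmic) of the 7 members in 5 WT/mut and 4 WT libraries; points are libraries and lines are group means. Trpm6 is lowest in both groups, at 0.0554 to 0.192 in WT/mut cells and 0.326 to 1.71 in WT cells, while Magt1, Cnnm3 and Trpm7 overlap at the top.

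Trpm6 made up little of the summed level of the 7 genes. The sum was 41.3 ± 3.25 CPM per kilobase in WT/mut cells (SD, n = 5) and 38.8 ± 2.69 in WT cells (SD, n = 4), with overlapping ranges. Trpm6 contributed 0.265% of it in WT/mut cells, with a range of 0.129% to 0.438%, and 2.56% in WT cells, with a range of 0.820% to 4.21%. Trpm7 contributed 25.7% in WT/mut cells and 27% in WT cells. Without Trpm6 the sum was 41.2 ± 3.24 CPM per kilobase in WT/mut cells and 37.8 ± 2.63 in WT cells.

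RNA of genes that mark the gut epithelium, a tissue that also uses Trpm6 and Cnnm4, was found in all 9 libraries. The summed CPM of 22 epithelial marker genes was 98.1 in replicate 6, 63.5 in replicate 7, 384 in replicate 8, 631 in replicate 9 and 232 in replicate 10 of the WT/mut cells. The WT sums were 410 in replicate 1, 518 in replicate 3, 1343 in replicate 4 and 498 in replicate 5. The groups overlapped (mean 282 ± 232 in WT/mut cells and 693 ± 436 in WT cells; exact two-sided permutation p = 0.0794, adjusted over 7 marker lists 0.185). Of the 22 markers, 18 had a lower mean in WT/mut cells and none was at 0 in all libraries. The most abundant were the lipid transport genes Apoa4 (66.4 ± 58.7 CPM in WT/mut cells and 211 ± 138 in WT cells), Apoa1 (48.7 ± 42.6 in WT/mut cells and 114 ± 68.0 in WT cells) and Fabp1 (30.4 ± 27.8 in WT/mut cells and 116 ± 54.3 in WT cells).

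WT replicate 4 had both the highest epithelial sum and the highest Trpm6 level. WT/mut replicate 9 had a higher epithelial sum than WT replicates 1, 3 and 5 and the lowest Trpm6 level of all 9 libraries. Per 100 CPM of epithelial markers, Trpm6 was at 0.766 CPM in replicate 6, 1.24 in replicate 7, 0.387 in replicate 8, 0.0678 in replicate 9 and 0.342 in replicate 10 of the WT/mut cells. The WT ratios were 1.72 in replicate 1, 1.53 in replicate 3, 0.981 in replicate 4 and 0.505 in replicate 5, so these ratios overlapped between the groups. With log2 of the epithelial sum as a covariate, the log2 fold change of Trpm6 was -2.78 ± 0.69 (SE) and was not called. That of Cnnm4 was -0.82 ± 0.34. Without WT replicate 4 the Trpm6 value was -2.76 ± 0.50 and was not called. The loss of the call was not particular to these 2 fits. Trpm6 was also not called with detected genes or with plasma cell markers as a covariate. Of the 9 fits that left out 1 library, 1 kept the call. What part epithelial RNA has in the Trpm6 level was not tested.

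**Figure D4:**
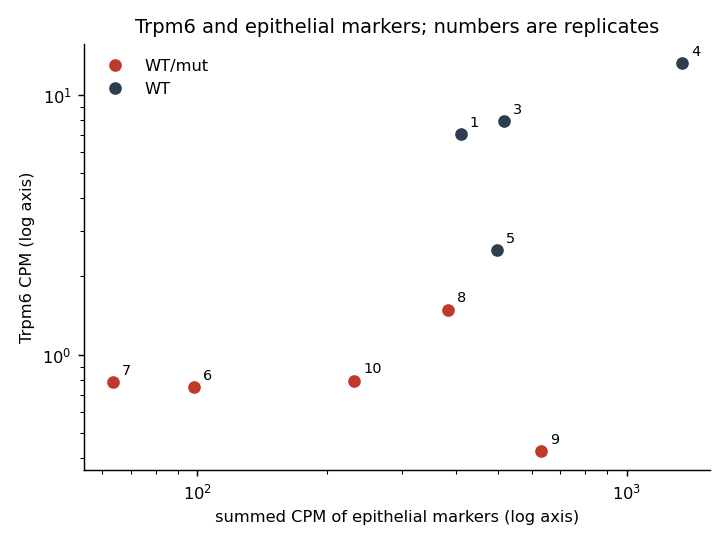
Trpm6 CPM (vertical axis, logarithmic) against the summed CPM of 22 epithelial markers (horizontal axis, logarithmic) in each library; numbers are replicates, and colours are the groups. WT replicate 4 is highest on both axes, at 1343 and 13.2 CPM. WT/mut replicate 9 lies at 631 on the horizontal axis, to the right of WT replicates 1, 3 and 5, with the lowest Trpm6 level, 0.427 CPM.

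Markers of other cells were also measured beside the members. Red cell and platelet genes, led by Hbb-bs, Hba-a1 and Hba-a2, summed to 576 ± 201 CPM in WT/mut cells and 200 ± 76.0 in WT cells (exact permutation p = 0.0159, adjusted 0.111, ranges 402 to 870 in WT/mut cells and 98.9 to 283 in WT cells). Of these 8 genes, 6 were tested, all with a positive log2 fold change. Of the 6, edgeR called 0, DESeq2 called 4, 5 had an unadjusted p under 0.05, and 5 had ranges apart. DESeq2 gave Pf4, a platelet gene among the 6, no adjusted p. Over all genes tested, edgeR called 0.122%, and DESeq2 called 2.32% of those it gave an adjusted p. An unadjusted p under 0.05 was found in 12.2%, and ranges apart in 4.46%. These shares stand beside each marker list below. Plasma cell genes, led by Ighm, Igha and Igkc, summed to 3031 ± 506 CPM in WT/mut cells and 2483 ± 241 in WT cells (p = 0.111 by the same exact test, adjusted 0.194). Ighm carried most of that sum, at 1725 ± 203 CPM in WT/mut cells and 1947 ± 268 in WT cells. Igha, the IgA heavy chain, was at 401 ± 231 CPM in WT/mut cells and 41.1 ± 32.7 in WT cells, and Jchain, which joins IgA units and is named after its values were seen, at 164 ± 86.4 in WT/mut cells and 22.6 ± 13.6 in WT cells, both with ranges apart. Of the 13 plasma cell genes tested, 8 had a positive and 5 a negative log2 fold change, Ighm among the negative. Of the 13, edgeR called 0, DESeq2 called 4, and 4 had ranges apart. An unadjusted p under 0.05 was found in 7, and these 7 were higher in WT/mut cells. B cell genes, led by Cd74, H2-Ab1 and H2-Aa, summed to 2012 ± 577 CPM in WT/mut cells and 1492 ± 452 in WT cells. Of these 15 genes, 14 had a positive log2 fold change, with a median of 0.61, 0 were called by edgeR or DESeq2, and 4 had an unadjusted p under 0.05. Myeloid genes, led by Lyz2, Csf1r and Cd68, summed to 198 ± 117 CPM in WT/mut cells and 142 ± 70.2 in WT cells. Stromal and endothelial genes, led by Pecam1, Cr2 and Acta2, summed to 207 ± 24.7 CPM in WT/mut cells and 182 ± 30.2 in WT cells. Pecam1 carried most of that sum, at 177 ± 26.2 CPM in WT/mut cells and 166 ± 22.1 in WT cells. Tek encodes an endothelial receptor and is named here after its values were seen. It was at 1.51 ± 0.600 CPM in the WT/mut libraries and 0 in all WT libraries, and was the 1 marker gene that edgeR called. Tek passed the filter on low counts only through the WT/mut libraries, so nothing is read from that call. DESeq2 gave it no adjusted p and did not call it. The Tfh genes summed to 6969 ± 198 CPM in WT/mut cells and 7651 ± 652 in WT cells (exact permutation p = 0.0556, adjusted 0.185). Of these 10 genes, 4 had a positive and 6 a negative log2 fold change. Among the 10, edgeR called 0, DESeq2 called 2, and 3 had an unadjusted p under 0.05, all lower in WT/mut cells. The 2 were Icos and Il21, the latter named after its values were seen. Both had ranges apart, with log2 fold changes of -0.52 ± 0.09 and -0.55 ± 0.12 (SE). No summed list passed the adjusted threshold. The smallest possible p was 0.00794, and if only 1 list reached it, adjustment over 7 lists would put it above 0.05. The outcome therefore does not show that a list was alike in the groups. What part any of these cells has in the member levels was not tested.

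Further genes were taken from 5 lists with 61 genes, of which 46 were tested. The lists cover other magnesium transport, its regulators, other TRPM channels, the TRPM7 kinase and the oligosaccharyltransferase. None of the 46 passed the adjusted threshold in edgeR. Before adjustment, 10 of the 46 (21.7%) had p under 0.05, as did 1886 of all tested genes (12.2%). Of the 10, all but Plcg2 were lower in WT/mut cells. DESeq2 called 1 of the 46, Zdhhc13. It gave some of the 46, such as Fxyd2 and Trpm5, no adjusted p, so these could not be called. The plot of fold changes shows the 4 genes of lowest p from each list beside the members.

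**Figure D5:**
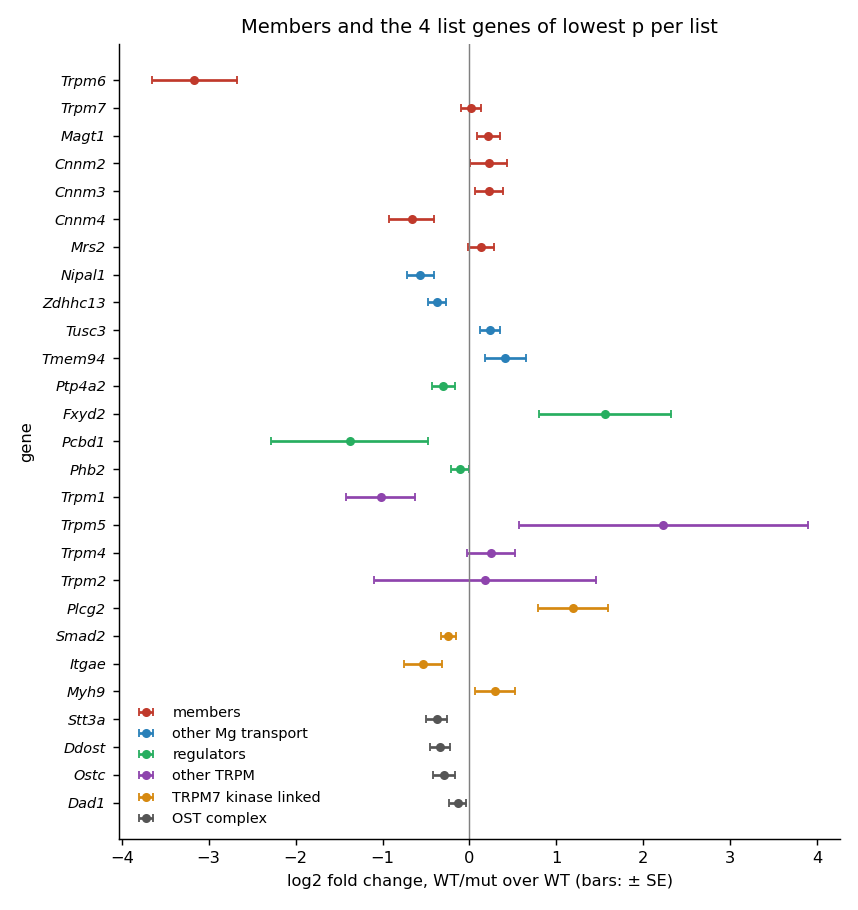
Log2 fold change, WT/mut over WT (horizontal axis; bars are ± SE), of the 7 members and of the 4 genes with the lowest p in each of 5 lists; colours are the lists. Trpm6 at -3.17 lies apart from the other members, which run from -0.67 to 0.23.

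Of 16 other magnesium transport genes, 13 were tested, 9 with a positive and 4 with a negative log2 fold change, and their median was 0.10. Nipal1, of the NIPA family of magnesium transporters, was at 19.9 ± 2.51 CPM in WT/mut cells and 29.4 ± 5.63 in WT cells, with ranges apart (16.2 to 22.4 in WT/mut cells and 25.2 to 37.6 in WT cells). For Nipal1 the log2 fold change was -0.57 ± 0.16 (SE, adjusted p = 0.244, edgeR). Zdhhc13, a palmitoyltransferase reported to carry magnesium, was at 52.5 ± 4.27 CPM in WT/mut cells and 67.9 ± 6.08 in WT cells, also with ranges apart. For Zdhhc13 the log2 fold change was -0.37 ± 0.10 (adjusted p = 0.252 in edgeR and 0.037 in DESeq2). Tusc3, the paralog of Magt1 in the oligosaccharyltransferase, had a log2 fold change of 0.24 ± 0.12 (adjusted p = 0.431, edgeR). Tmem94, reported as a magnesium transporter of the endoplasmic reticulum, had 0.41 ± 0.23 (adjusted p = 0.481, edgeR). Slc41a1, a sodium-dependent magnesium exporter, was the most abundant of this list at 158 ± 7.80 CPM in WT/mut cells and 141 ± 42.4 in WT cells.

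Of 18 regulators of magnesium handling, 11 were tested, 7 with a positive and 4 with a negative value, with a median of 0.08. Ptp4a2, a phosphatase that binds CNNM proteins, had a log2 fold change of -0.30 ± 0.13 (adjusted p = 0.403, edgeR), at 353 ± 21.8 CPM in WT/mut cells and 434 ± 92.8 in WT cells. Fxyd2, a subunit of the sodium pump in the kidney, was at 0.711 ± 0.436 CPM in WT/mut cells and 0.236 ± 0.143 in WT cells. Pcbd1, an enzyme that recycles tetrahydrobiopterin, was at 0.475 ± 0.320 CPM in WT/mut cells and 1.24 ± 1.22 in WT cells. Phb2, which binds the TRPM6 kinase domain, had -0.11 ± 0.10. Rack1, another protein that binds the TRPM6 kinase, averaged 180 ± 20.5 CPM in WT/mut cells and 175 ± 21.0 in WT cells. Cldn16 and Umod, both known from the kidney tubule, had no count in any library.

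Of the 6 other TRPM channel genes, 4 were tested. Trpm1, known from retinal bipolar cells, was at 3.49 ± 1.61 CPM in WT/mut cells and 7.10 ± 3.48 in WT cells, with overlapping ranges and a log2 fold change of -1.02 ± 0.40 (adjusted p = 0.356, edgeR). Trpm4, a channel for sodium that opens with calcium, was at 13.5 ± 2.94 CPM in WT/mut cells and 11.4 ± 4.03 in WT cells. Trpm5 and Trpm2 each averaged under 2 CPM in both groups and had SEs above 1 on the log2 scale. Trpm3 and Trpm8 did not pass the filter.

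Of 9 genes linked to the TRPM7 kinase, 8 were tested, 4 in each direction, with a median of -0.03. Smad2, a kinase target in T cells and the signal carrier of the TGF-beta receptor, was at 84.1 ± 4.52 CPM in WT/mut cells and 99.6 ± 6.90 in WT cells, with ranges apart. The log2 fold change of Smad2 was -0.24 ± 0.09 (adjusted p = 0.330, edgeR). Itgae, the CD103 integrin chain that TRPM7 kinase activity supports in mouse T cells, had -0.53 ± 0.22 (adjusted p = 0.371, edgeR). Plcg2, a phospholipase that TRPM7 phosphorylates and that B cells use, had 1.19 ± 0.40 (adjusted p = 0.312, edgeR). Of the B cell markers, 14 of 15 also had a positive value, among them Spib at 1.96 ± 0.67 and Ms4a1 at 1.23 ± 0.64, both named after their values were seen. Their part in the Plcg2 level was not tested. Myh9, a myosin heavy chain phosphorylated by TRPM7, had 0.30 ± 0.23.

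Of 12 genes of the oligosaccharyltransferase and of its MAGT1-dependent products, 10 were tested, 3 with a positive and 7 with a negative value, with a median of -0.11. Stt3a, a catalytic subunit of the complex that lacks MAGT1, had a log2 fold change of -0.38 ± 0.12 (adjusted p = 0.291, edgeR). Ddost, a subunit of both complexes, had -0.34 ± 0.11 (adjusted p = 0.312, edgeR), with ranges apart at 211 to 262 CPM in WT/mut cells and 270.0 to 371 in WT cells. Ostc and Dad1 had -0.29 ± 0.13 and -0.14 ± 0.10. Stt3b, the catalytic subunit that MAGT1 serves, had 0.02 ± 0.14, at 177 ± 13 CPM in WT/mut cells and 175 ± 38.3 in WT cells. Klrk1 and Cd70, which encode an activating receptor and the ligand of CD27 and whose products need MAGT1 in humans, did not pass the filter.

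The genes whose profile over the 9 libraries was most like that of Trpm6 were ranked by the root-mean-square difference of centred log2 CPM. Sardh, a mitochondrial sarcosine dehydrogenase, was nearest with a difference of 0.738, followed by Clec11a (0.807), Vsig8 (0.844), Cldn15 (0.867), Pbld2 (0.895), Lrrn1 (0.921), Ctsw (0.933) and Dbh (0.940). Their likeness includes the difference between the groups that chose Trpm6, so their values are a description. Sardh was at 6.04 ± 0.805 CPM in WT/mut cells and 32.1 ± 6.55 in WT cells, and Ctsw, a cathepsin of cytotoxic lymphocytes, at 11 ± 2.03 in WT/mut cells and 35.8 ± 8.67 in WT cells. Cldn15, a tight junction gene of the intestine, was at 1.96 ± 1.67 CPM in WT/mut cells and 8.77 ± 6.03 in WT cells. It was highest in WT replicate 4 and lowest in WT/mut replicate 7, the libraries with the highest and lowest epithelial sums. Vsig8 and Pbld2 were also highest in WT replicate 4. Vsig8 was near 0 in WT/mut cells, at 0.0241 ± 0.0538 CPM, so no lowest library is named for it. Sardh and Lrrn1 were highest in WT replicate 1, and Clec11a, Ctsw and Dbh in WT replicate 3. What part epithelial RNA has in these profiles was not tested. Lrrn1 was at 0.00531 ± 0.0119 CPM in WT/mut cells and 1.23 ± 0.599 in WT cells. The nearest profiles to Trpm7 were far closer to it, those of Sbno1 (0.0763), Sp3 (0.0808) and Maf (0.0828). Maf encodes a transcription factor of Tfh cells and was at 232 ± 30.3 CPM in WT/mut cells and 229 ± 27.2 in WT cells.

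The genes around Trpm6 were chosen after its values were seen. Within 1000 kb on either side, 22 other genes are annotated, 6 were tested and none was called by edgeR. D030056L22Rik, the nearest tested gene at 31.6 kb, had a log2 fold change of -0.20 ± 0.15 (SE), at 17.8 ± 2.98 CPM in WT/mut cells and 20.5 ± 1.90 in WT cells. Carnmt1, a carnosine methyltransferase gene at 42.8 kb, had -0.29 ± 0.16. Nmrk1, a nicotinamide riboside kinase gene at 97.6 kb, had 0.29 ± 0.29, and Ostf1 at 118.2 kb had -0.23 ± 0.09. Rorb, the gene on the other side at 38.1 kb, had 3.024 ± 2.029, at 1.97 ± 4.2 CPM in WT/mut cells and 0.239 ± 0.275 in WT cells. Pcsk5, a proprotein convertase gene, had 2.307 ± 1.825, at 0.718 ± 1.16 CPM in WT/mut cells and 0.138 ± 0.277 in WT cells. For Rorb and Pcsk5 the SD was above the mean in each group.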

How the data were processed

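Messenger RNA was measured by RNA sequencing of sorted Tfh cells. The authors deposited a table of expected counts, of which up to 18.3% per library were not whole. The named tools and build were RSEM 1.3.0, STAR 2.5.3, cutadapt 2.10, DESeq2 and mm10, per the submitters' processing notes. The release of the gene annotation was not given in the sources used here. Counts were rounded and tested with the edgeR 4.0.16 quasi-likelihood F test (robust, TMM, no covariate, R 4.3.3) on the 15521 genes passing filterByExpr (minimum count 10, total 15), with Benjamini-Hochberg adjustment at 0.05. The SE is the absolute log2 fold change over the square root of F. Marker sums were compared by exact permutation over 126 divisions of the libraries (smallest p 0.00794). Annotation was GENCODE M21, matched without version for 54079 of 54146 identifiers. Rack1 is listed as Gnb2l1. Named genes were the 7 members, Tgfbr1, the 4 of lowest p in each list, the 8 profiles nearest to Trpm6 and 3 nearest to Trpm7 (log2 CPM, prior count 2), and the 3 most abundant of each marker list; other genes were named after their values were seen. The members and lists were chosen with earlier results of these data known. Alternatives were DESeq2 1.42.0, limma-voom 3.58.1, other size factors, filters, covariates, lengths and prior counts, and each library left out. Depth was 29488783 to 43872686 counts per library. Promoter sequences were matched by symbol for 6 of 7 members, all but Mrs2.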

Additional observations from a re-analysis of the deposited data

Results flagged for a closer look

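Of 20 sets of values within a group that were searched for a library far from the rest, 3 held one past Dixon's 95% critical value, a limit that by its definition about 1 in 20 sets pass by chance. WT/mut replicate 7 had 30143 genes with a count, where the next highest library of its group had 20264. Without that library the log2 fold change of Trpm6 was -3.14 ± 0.55 (SE). WT replicate 1 had 14.0 CPM of Cnnm4, where the next highest WT library had 7.48. WT replicate 4 had a summed epithelial marker level of 1343 CPM, where the next highest WT library had 518.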

How the results depend on the processing

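The log2 fold change of Trpm6 lay between -3.64, with plasma cell markers as a covariate, and -2.76, without WT replicate 4, over 20 alternatives. It was called in 7 of them: DESeq2, RLE size factors, library size only, no filter, a minimum count of 30, a fit that was not robust, and the fit without WT replicate 5. The number of members called was 0 with limma-voom, with each of the 3 covariates (detected genes, epithelial markers, plasma cell markers) and without WT/mut replicates 7 and 9 together, an alternative chosen after seeing the data. It was 0 to 1 when 1 library was left out. The number of all genes called, 19 in the fit reported, was 283 with DESeq2, 1 with each of the 3 covariates, 1 without WT/mut replicates 7 and 9, and 2 to 23 with 1 library left out. The cause was not tested; these fits with libraries left out have fewer samples. DESeq2 called 1 gene of other magnesium transport, where edgeR called 0. With the longest transcript as the length, 4 members kept their rank. A prior count of 0.5 kept 6 of the 8 profiles nearest to Trpm6. The median of all genes was 0.39 without the filter on low counts, against 0.0015 with it. Trpm6 rests on 12 to 56 counts per WT/mut library, which limits the precision of each library's value; the spread between these libraries was larger than counting error. No paired analysis was possible because the groups share no replicate numbers.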
